A study of Mus musculus with 24 samples.

Results

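Liver RNA of male (XY) mice was compared between 2 vector groups that differ only in a pair of hairpin vectors against Kdm5b and Kdm5c, with a hairpin vector against Ahr present in both. The reference group, called the AhR group here, received a control hairpin first and the Ahr hairpin second. The other, called the Kdm5 plus AhR group, received the Kdm5b and Kdm5c hairpins first and the Ahr hairpin second. Its members were the 3 libraries of each group, 6 of the 24 in the series, and the compared features were 2299 of 2372 genes, those at 1 FPKM or more in 3 or more libraries. FPKM is a gene's fragments scaled by transcript length and library size, and fold changes are of log2(FPKM + 0.5), so that the change of genes with low levels comes out too small.

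All animals of the series had been fed the Lieber-DeCarli liquid alcohol diet for 3 weeks and had received hairpins through adeno-associated virus (AAV), so that no group here is an untreated liver. Each of the 8 groups, formed by sex and by the 2 injections, holds 3 libraries. The other male groups, which enter the side-by-side values below, are the control group (control hairpin in both injections) and the Kdm5 group (Kdm5b and Kdm5c hairpins, then a control hairpin). Females with the same vectors as the 2 compared groups serve for the comparison between the sexes. The sources used here give no age, no strain and no promoter of the vectors, and the RNA is that of whole liver. Whether the 3 libraries of a group came from separate animals is not stated for each, so p-values measure the spread between these libraries. Kdm5b and Ahr were not analysed here.

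Kdm5b and Kdm5c encode demethylases that remove methyl groups from lysine 4 of histone H3, a mark of active promoters, and Kdm5c lies on the X chromosome with a partner, Kdm5d, on the Y. Ahr encodes the aryl hydrocarbon receptor, a ligand-activated transcription factor whose best known liver targets are cytochrome P450 genes of the Cyp1 family. In male liver, the repressor BCL6 competes with growth hormone-activated STAT5 at many genes that differ between the sexes, and glucocorticoids induce a set of genes that limit growth signalling and inflammation.

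The FPKM of the 6 libraries summed to between 383094 and 429117, and the 19 Mup genes (major urinary proteins) took 14.0% to 24.3% of each sum. No 2 libraries held identical values. On the first principal component of the 6 libraries, with 43% of their variance, the AhR group lay between -9.77 and -5.86 and the Kdm5 plus AhR group between 7.64 and 8.61. Library 3 of the AhR group stood apart on the second component (22.6% of the variance), at -11.56 against -2.42 to 7.44 for the other 5, and counts without it are given below. The 4 hepatocyte markers in the table summed to 14370 to 15710 FPKM in the AhR group and 14710 to 17180 in the Kdm5 plus AhR group.

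More genes were lower than higher with the Kdm5 vectors added. Of 2299 genes, 75 (3.26%) passed at an adjusted p under 0.05 in limma's moderated test, 54 lower (2.35%) and 21 higher (0.913%). The transcription repressor gene Bcl6 fell most, 9.80-fold, and 7 predicted genes of unknown function were among the highest rises. Among those that fell were 6 members of the glucocorticoid-responsive list, the C/EBP transcription factor genes Cebpb and Cebpd, and Nfkbia and Zfp36. In the same glucocorticoid-responsive list 2 members, Fkbp5 and Mt1, rose. Of the genes that rose, Scara5, Camk2b, Phlda1 and Angptl8 had changes of 2.40-fold to 3.40-fold.

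**Figure D1:**
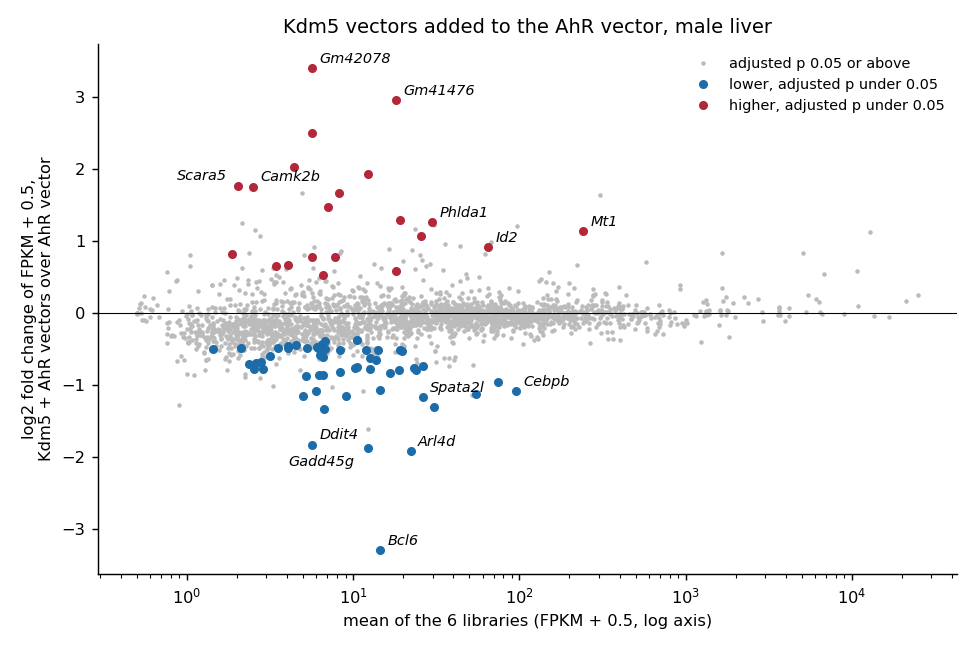
Log2 fold change of FPKM + 0.5 (Kdm5 plus AhR group over AhR group) against the mean level of the 6 libraries on a log axis, with 1 point per tested gene. The 21 higher (red) and 54 lower (blue) genes with adjusted p under 0.05 are mostly of low to middle level, and Bcl6 at -3.29 lies below every other gene.

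In 74 of the 75 genes the 2 groups did not overlap, which 543 of all 2299 genes (23.6%) also met, 123 of them higher (5.35%) and 420 lower (18.3%). Rexo1, named for that overlap after its values were seen, is the exception. At an unadjusted p under 0.05, 374 genes differed. The median log2 fold change over all tested genes was -0.08, with 1554 genes below 0. When libraries were rescaled by the median of ratios, 59 genes passed, 26 higher and 33 lower, so that the share of lower calls went from 72% to 55.9%. Without library 3 of the AhR group 56 genes passed, 28 in each direction. The number of calls was 43 without library 2 and 35 without library 3 of the Kdm5 plus AhR group, and 42 without library 2 of the AhR group.

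Of the hairpin targets, Kdm5c is reported (GRCm38.p6, chromosome X, 152233198 to 152279102). Its levels were 6.92, 7.69 and 7.81 FPKM in the AhR group and 5.11, 5.36 and 4.86 FPKM in the Kdm5 plus AhR group. All 3 libraries with the Kdm5 vectors lay below the lowest without them, and the log2 fold change was -0.51 ± 0.11 (SE; limma, adjusted p = 0.0124; a 1.42-fold decrease). The call was lost without library 3 of the Kdm5 plus AhR group (-0.47) or library 2 of the AhR group (-0.49), the highest adjusted p being 0.0683. Of the 4 histone demethylase genes in the table, Kdm5c alone passed: Kdm6a, the H3K27 demethylase on the X, changed by -0.36 (adjusted p = 0.26), Kdm5d by -0.11 (adjusted p = 0.778) and Uty by 0.01 (adjusted p = 0.983). None of the 5 tested AhR target genes passed. Cyp1a2, the most abundant of them, changed by -0.15 (adjusted p = 0.822), and the effect of the Ahr hairpin on its own target was not analysed here.

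Bcl6 (chromosome 16, 23965050 to 23988866), which encodes a zinc finger repressor, stood at 31.4, 29.99 and 16.26 FPKM in the AhR group. In the Kdm5 plus AhR group it measured 2.28, 1.99 and 2 FPKM. The groups were separated by a wide gap, with library 3 of the AhR group the lowest of its own group and still above all others. The log2 fold change was -3.29 ± 0.29 (adjusted p = 7.88e-07 in limma), the 95% confidence interval ran from -3.89 to -2.69, and it passed without any single library and under every alternative setting that was run. The AhR group was high relative to the other male groups: Bcl6 averaged 4.39 ± 0.444 FPKM (SD, n = 3) in the control group, 25.9 ± 8.36 in the AhR group, 7.84 ± 1.55 in the Kdm5 group and 2.09 ± 0.165 in the Kdm5 plus AhR group. The AhR group is also the treated side of the comparison with control vectors, where Bcl6 was higher by 2.38 (adjusted p = 0.000111). Because those libraries are shared, the 2 values are not independent.

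The Bcl6 promoters are printed, with those of Arl4d, Irf2bp2 and Camk2b, because they are among the 8 named genes that passed without any single library and under every setting that tested them. The first 3 had the lowest fold changes of those 8, and Camk2b, picked with its values known, is an example of a gene that rose. Each line holds 250 bases before and 50 after a gene start in RefSeq (GRCm38.p6), 5′ to 3′ on the gene's strand, and positions count from 1 at the gene start. Capitals mark matches on either strand to GCGTG (the core of the AhR binding element, written CACGC on the other strand), CACGTG (E-box), TTCNNNGAA (the STAT palindrome, which BCL6 can also bind) and TGACGTCA (cAMP response element). TTATGTAA (D-box) and the palindromic glucocorticoid response element were searched and not found in these 5 windows, and no printed match overlaps another.
Bcl6 first start, chr16:23988803-23989102, minus strand: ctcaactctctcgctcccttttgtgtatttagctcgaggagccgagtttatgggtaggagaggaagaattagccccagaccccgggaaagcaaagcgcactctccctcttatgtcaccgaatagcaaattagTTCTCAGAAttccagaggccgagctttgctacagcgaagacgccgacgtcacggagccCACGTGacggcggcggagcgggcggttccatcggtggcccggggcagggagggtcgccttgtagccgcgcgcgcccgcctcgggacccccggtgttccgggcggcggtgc
Bcl6 second start, chr16:23981234-23981533, minus strand: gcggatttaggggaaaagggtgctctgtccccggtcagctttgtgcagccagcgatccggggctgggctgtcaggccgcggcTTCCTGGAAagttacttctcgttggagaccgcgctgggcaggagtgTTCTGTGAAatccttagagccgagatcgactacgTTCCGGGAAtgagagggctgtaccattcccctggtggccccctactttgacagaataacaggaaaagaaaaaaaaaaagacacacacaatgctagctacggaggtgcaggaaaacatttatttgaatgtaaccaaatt
Arl4d, chr11:101665291-101665590, plus strand: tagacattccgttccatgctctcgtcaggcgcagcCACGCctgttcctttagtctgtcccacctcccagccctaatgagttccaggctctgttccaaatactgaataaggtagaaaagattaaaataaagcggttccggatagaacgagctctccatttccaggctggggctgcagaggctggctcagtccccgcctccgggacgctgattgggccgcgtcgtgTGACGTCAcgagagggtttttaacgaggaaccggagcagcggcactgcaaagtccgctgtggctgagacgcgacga
Irf2bp2, chr8:126593937-126594236, minus strand: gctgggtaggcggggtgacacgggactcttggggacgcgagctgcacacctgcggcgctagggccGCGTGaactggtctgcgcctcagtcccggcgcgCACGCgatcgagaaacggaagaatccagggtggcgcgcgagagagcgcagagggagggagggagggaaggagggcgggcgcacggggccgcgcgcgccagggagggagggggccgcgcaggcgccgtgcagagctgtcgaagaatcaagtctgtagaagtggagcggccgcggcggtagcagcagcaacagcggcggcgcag
Camk2b, chr11:6065699-6065998, minus strand: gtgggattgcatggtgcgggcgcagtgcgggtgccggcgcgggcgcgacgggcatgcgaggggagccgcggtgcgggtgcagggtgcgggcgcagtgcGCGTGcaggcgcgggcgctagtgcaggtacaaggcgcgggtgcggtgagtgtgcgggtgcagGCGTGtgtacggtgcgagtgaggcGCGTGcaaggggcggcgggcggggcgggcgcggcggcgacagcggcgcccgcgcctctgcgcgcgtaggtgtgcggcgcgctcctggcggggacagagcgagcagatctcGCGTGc
The first Bcl6 window held the palindrome at -118 and an E-box at -60, and the second held 3 palindromes, at -168, -122 and -88. Arl4d had 1 AhR core at -215 and a cAMP response element at -26, Irf2bp2 had AhR cores at -185 and -152, and Camk2b had 4, at -152, -90, -66 and 45. The core is common: GCGTG was in 32.4% of all promoters of the RefSeq table. In the same table CACGTG was in 7.15%, TTCNNNGAA in 8.3%, TGACGTCA in 1.79%, TTATGTAA in 0.938% and the glucocorticoid response element in 0.00913%. Among promoters of the tested genes alone, GCGTG was in 45.4%, CACGTG in 8.89%, TTCNNNGAA in 7.18% and TGACGTCA in 1.88%. A match describes letters only, and binding was not measured.

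Of 11 tested genes of the growth hormone, STAT5 and BCL6 axis, Bcl6 fell and the other 10 did not pass. The STAT5 genes Stat5a (-0.31) and Stat5b (-0.29) and the growth hormone receptor gene Ghr (0.11) did not pass, and Cish, a STAT5-induced inhibitor, changed by 1.16 (adjusted p = 0.0928). Of 26 male-biased liver genes 1 passed, Arl4d, which encodes a small GTPase of the ARF-like family. It stood at 37.99, 41.19 and 24.89 FPKM in the AhR group and 10.01, 8.09 and 7.83 FPKM in the Kdm5 plus AhR group. All 3 libraries with the Kdm5 vectors were lower, by -1.92 ± 0.28 (adjusted p = 0.000708). None of the 34 female-biased genes and none of the 19 Mup genes passed, where the Mup median was 0.25 with 16 of 19 above 0. Reads of Mup genes can be shared between near-identical copies, so single Mup values are uncertain.

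The glucocorticoid-responsive list moved in both directions. Of 17 tested members, 6 fell and 2 rose, against 2.35% and 0.913% of all tested genes. The list was chosen with earlier results of these data known, so these shares do not test it. Ddit4, an inhibitor of mTORC1 signalling, stood at 9.5, 11.36 and 4.48 FPKM in the AhR group and 2.05, 1.94 and 1.61 FPKM in the Kdm5 plus AhR group. The 2 groups did not overlap, and library 3 of the AhR group lay nearest to the other group. The log2 fold change of Ddit4 was -1.83 ± 0.38 (adjusted p = 0.00845).

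Pim3, a serine/threonine kinase gene, measured 32.01, 52.38 and 44.53 FPKM in the AhR group and 25.52, 13.39 and 13.61 FPKM in the Kdm5 plus AhR group, a change of -1.31 ± 0.24 (adjusted p = 0.00468). Tsc22d3, which encodes the glucocorticoid-induced leucine zipper GILZ, went from 77.63, 63.14 and 80.68 to 34.31, 45.41 and 24.1 FPKM (-1.12 ± 0.30, adjusted p = 0.0414). In both genes the lowest library of the AhR group was above the highest of the other. The arrestin-domain gene Arrdc2 (-0.88), the clock gene Per1 (-0.82) and the kinase gene Sgk1 (-0.77) fell too, with adjusted p of 0.0383, 0.0383 and 0.0171. When libraries were rescaled by the median of ratios, Tsc22d3, Per1 and Arrdc2 lost their calls with their sign unchanged, which left 3 members that fell and 2 that rose.

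The members that rose were Fkbp5 and Mt1. Fkbp5, a co-chaperone of the glucocorticoid receptor, stood at 10.34, 16.55 and 22.13 FPKM in the AhR group and 28.45, 38.37 and 34.19 FPKM in the Kdm5 plus AhR group (1.07 ± 0.29, adjusted p = 0.0466). Mt1, a metallothionein that binds zinc and copper, stood at 120.14, 227.78 and 116.37 and then 388.47, 254.22 and 342.79 FPKM (1.13 ± 0.30, adjusted p = 0.0383). In Mt1 library 2 of the AhR group came close to library 2 of the other group. Both calls are near the threshold, Fkbp5 passing 1 and Mt1 2 of the 6 fits that left out a library, with adjusted p up to 0.202 and 0.165. Of the members that fell, Pim3 passed all 6 such fits and Ddit4 5, while Per1 and Sgk1 passed 2 and Tsc22d3 and Arrdc2 passed 1, with adjusted p up to 0.248 for Tsc22d3. The median of the 17 members was -0.38, against -0.08 for all genes. The 9 that did not pass ranged from -1.14 (Igfbp1, adjusted p = 0.0708 in limma) to 1.67 (Zbtb16, adjusted p = 0.153). Mt2, a second metallothionein gene, was near the upper end at 1.64 (adjusted p = 0.0822). Of these 9, Pck1 and Tat, enzymes of gluconeogenesis and tyrosine breakdown, had the highest levels and changed by -0.04 and -0.29.

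**Figure D2:**
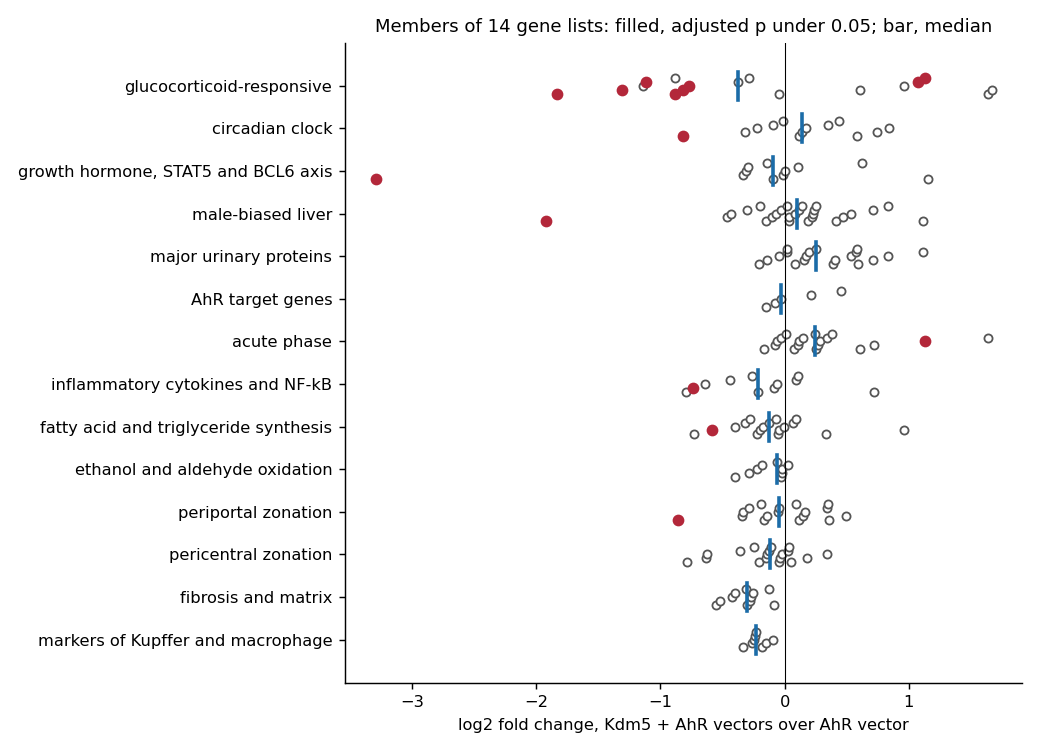
Log2 fold changes of the tested members of 14 gene lists, 1 point per gene, filled where adjusted p was under 0.05, with the list median as a bar. The glucocorticoid-responsive list has 8 filled points on both sides of 0, and the fibrosis and Kupffer lists lie below 0 with no filled point.

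Cebpb, a bZIP transcription factor of the acute phase and of gluconeogenesis, measured 118.88, 149.22 and 117.6 FPKM in the AhR group and 71.73, 59.16 and 50.52 FPKM in the Kdm5 plus AhR group. The lowest AhR library was well above the highest of the other group, and the change was -1.09 ± 0.22 (adjusted p = 0.00804). Cebpd, its relative, fell by 1.08 on the log2 scale (adjusted p = 0.0383), from 6.3, 9.39 and 7.23 FPKM to 4.16, 3.65 and 2.32. Its call was lost in 4 of 6 fits without a library and on rescaling by the median of ratios.

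Gadd45g, a stress-induced gene of the GADD45 family, had 11.21, 33.99 and 12.84 FPKM in the AhR group and 4.21, 4.08 and 4.49 FPKM in the Kdm5 plus AhR group. Library 2 of the AhR group was well above the others of that group, and the change of -1.88 ± 0.48 (adjusted p = 0.0341) did not pass without it (-1.39). The Gadd45g call was also lost without any single library of the Kdm5 plus AhR group. It held in 2 of the 6 fits without a library, with adjusted p up to 0.167 in limma. Zfp36, which encodes the mRNA decay factor tristetraprolin, fell by 0.96 (adjusted p = 0.0343). Its call held in 1 of the 6 fits without a library and was lost on rescaling by the median of ratios. Nfkbia, which encodes the NF-kB inhibitor IkB alpha, fell by 0.74 (adjusted p = 0.00804), from 32.27, 31.86 and 32.8 to 20.54, 20.31 and 16.76 FPKM. Nfkbia was the single member that passed of 11 tested NF-kB and cytokine genes, whose median was -0.22. Of 19 acute phase genes Mt1 rose and none fell, with a median of 0.25 and 15 of 19 above 0. The list's most abundant members, Serpina3k (0.15) and C3 (-0.16), did not pass.

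Irf2bp2, a transcriptional corepressor, was even across the AhR group, at 9.04, 8.9 and 9.03 FPKM, and measured 4.19, 3.07 and 2.69 FPKM in the Kdm5 plus AhR group (-1.33 ± 0.18, adjusted p = 0.000336). Spata2l (chromosome 8, 123232255 to 123236263), a gene related to Spata2, had 32.54, 40.71 and 34.18 FPKM and then 18.26, 15.53 and 13.19 (-1.17 ± 0.12, adjusted p = 8.76e-06). Both held without any single library, and every library with the Kdm5 vectors was under every one without. Rasgef1b, an exchange factor for Ras-family GTPases, went from 5.87, 6.54 and 6.73 to 2.55, 2.51 and 2.73 FPKM (-1.15 ± 0.19, adjusted p = 0.00129). The galectin gene Lgals4 (-1.16) and the regulator gene Tcim (-1.08) were lower too, with adjusted p of 0.00567 and 0.029. Lgals4 passed all 6 fits without a library, and Tcim passed 1 and lost its call on rescaling by the median of ratios.

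Cdh1, which encodes E-cadherin and is higher in periportal than in pericentral hepatocytes, fell by 0.86 (adjusted p = 0.00394), the single member of 17 tested periportal genes to pass. It had 8.69, 8.54 and 6.85 FPKM in the AhR group and 4.09, 3.89 and 4.55 FPKM in the Kdm5 plus AhR group, without overlap. None of the 18 pericentral genes passed. Acaca, the acetyl-CoA carboxylase that makes malonyl-CoA, was the single gene to pass of 17 of fatty acid and triglyceride synthesis (-0.59 ± 0.15, adjusted p = 0.0331). Its call held in 1 of the 6 fits without a library and was lost on rescaling by the median of ratios. Scd1, the most abundant of those 17, changed by -0.17. Of 9 genes of ethanol and aldehyde oxidation none passed, and Cyp2e1, the ethanol-inducible cytochrome P450, changed by -0.02.

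Among the named genes that rose, Scara5 and Camk2b passed without any single library and under every setting that tested them. Scara5, a scavenger receptor that takes up ferritin, had 0.47, 0.15 and 0.64 FPKM in the AhR group and 2.1, 1.97 and 3.91 FPKM in the Kdm5 plus AhR group (1.77 ± 0.27, adjusted p = 0.000745). Camk2b, the beta subunit of calcium/calmodulin-dependent kinase II, had 0.37, 0.73 and 0.8 and then 4.08, 3.9 and 2.16 FPKM (1.76 ± 0.29, adjusted p = 0.00129). Both genes are low in these livers, and the 3 libraries of each group did not overlap. Phlda1 stood at 16.75, 13.03 and 22.15 and then 35.05, 47.57 and 42.16 FPKM, a change of 1.26 ± 0.26 (adjusted p = 0.00804).

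Angptl8, a liver hormone that regulates lipoprotein lipase, stood at 7.63, 8.61 and 16.6 FPKM in the AhR group and 32.76, 26.24 and 20.28 FPKM in the Kdm5 plus AhR group. The change was 1.29 ± 0.31 (adjusted p = 0.0277), and the 16.6 FPKM of library 3 came near the lowest library of the other group. Angptl8 passed 2 of the 6 fits without a library, with adjusted p up to 0.112 in limma. Id2, an inhibitor of basic helix-loop-helix factors, stood at 47.25, 39.53 and 46.61 and then 76.19, 78.45 and 98.84 FPKM (0.91 ± 0.21, adjusted p = 0.0163). Its call held in 4 of the 6 fits without a library. Sowahc rose by 0.82 (adjusted p = 0.00615). The remaining 6 genes that rose did so by 0.52 to 0.78, and the remaining 33 that fell changed by -0.86 to -0.37.

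The 7 predicted genes were Gm42078 (3.40), Gm41476 (2.95), Gm46918 (2.50), Gm41035 (2.03), Gm39701 (1.93), Gm41844 (1.66) and Gm42267 (1.48), the values being log2 fold changes with adjusted p of 0.00129 to 0.0241. They are 7 of 36 tested genes whose names begin with Gm and a number, against 0.913% of all tested genes called higher, and were chosen as a group after their values were seen. Gm41476, Gm39701 and Gm41844 passed all 6 fits without a library, whereas Gm41035 passed 4, Gm46918 3 and Gm42078 and Gm42267 2. All 7 lost their calls in the fit on the 6 compared libraries only. Gm42078, Gm41476 and Gm42267 also lost theirs in the fit on the 12 male libraries, and Gm42078 with a pseudocount of 0.1. Gm41476 had 0.59, 5.43 and 7.48 FPKM in the AhR group and 43.33, 32.06 and 16.3 FPKM in the Kdm5 plus AhR group. All 7 were highest in library 1 and lowest in library 3 of the Kdm5 plus AhR group, and all 7 were highest in library 3 of the AhR group. Camk2b and Angptl8, described above, also met each of these, so their rises followed the same libraries. Gm39701 (chromosome 1, 170945108 to 170949763), Gm41844 (chromosome 19, 38379292 to 38381215) and Gm42267 (chromosome 4, 32791263 to 32792684) have a position in RefSeq. Gm42267 is labelled a pseudogene in the deposited data. The summed level of 3 erythroid markers was 997.3, 538.8 and 539.2 FPKM in libraries 1 to 3 of the Kdm5 plus AhR group. In the AhR group it was 548.2, 658 and 744.8 FPKM. Its part in the rise of the 7 predicted genes was not tested.

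**Figure D3:**
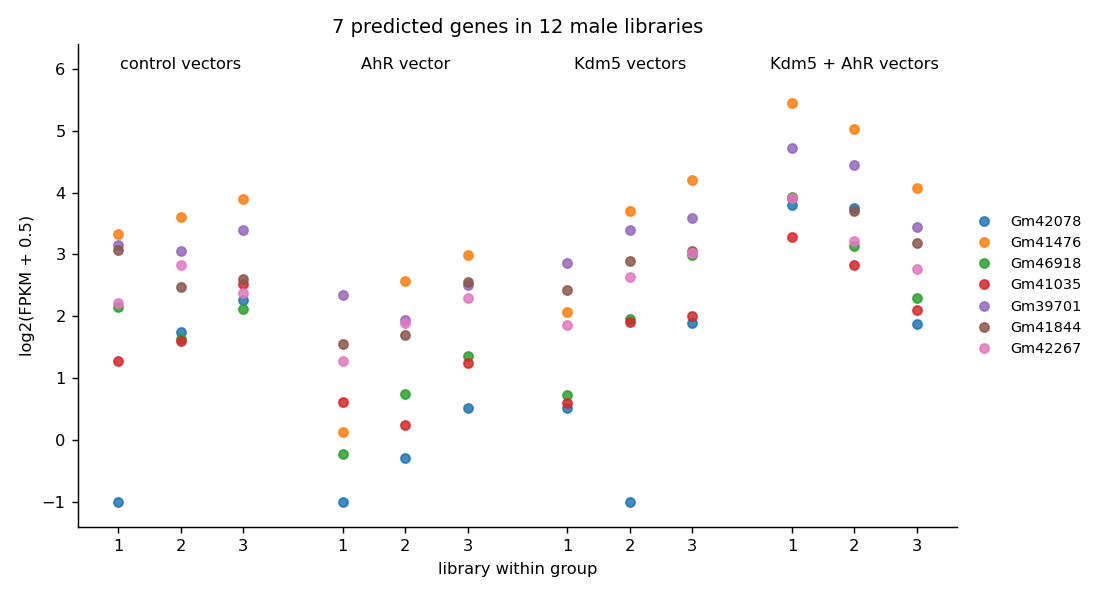
Levels of the 7 predicted genes as log2(FPKM + 0.5) in the 12 male libraries, 1 color per gene and 1 column per library. Each gene is higher in all 3 libraries of the Kdm5 plus AhR group than in any of the AhR group, while Gm41476 ranged from 3.71 to 17.99 FPKM in the control and Kdm5 groups.

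In all, 547 genes of 36 lists were tested and 15 of them (2.74%) passed, spread over 10 lists, against 3.26% of all tested genes. All 11 tested fibrosis and matrix genes were below 0 and none passed, with a median of -0.31. Fn1, the fibronectin gene and the most abundant of them, changed by -0.28 (adjusted p = 0.227), and Postn, a matricellular protein gene, by -0.52 (adjusted p = 0.0885). All 8 Kupffer and macrophage markers were below 0 as well, with a median of -0.23, and both lists lay below 0 in every member after rescaling too (medians of -0.25 and -0.17). C1qb, the most abundant macrophage marker, changed by -0.15 (adjusted p = 0.769). Their summed level was 286.2 to 398 FPKM in the AhR group and 223.5 to 341.9 FPKM in the Kdm5 plus AhR group, which overlap. Fewer cells of a type and less RNA per cell cannot be told apart in whole liver. Sinusoidal endothelial markers summed to 67.44 to 74.32 and 53.8 to 75.66 FPKM in the same order of groups. Stellate cell markers summed to 80.23 to 111.3 and 77.86 to 103.4 FPKM. Below 0 were 6 of 7 endothelial markers (median -0.12) and all 5 stellate markers (median -0.25), as were 1554 of all 2299 genes. After rescaling these were 5 of 7, all 5, and 1247 of 2299. The single cholangiocyte marker in the table, Sox9, was at 0.7 to 1.49 FPKM in the AhR group and 1.62 to 1.91 FPKM in the Kdm5 plus AhR group (0.48, not passing). Markers of neutrophils, T and NK cells, B cells and dendritic cells were not analysed here. The part of any cell type in the changes above was not tested.

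Genes with long transcripts had lower fold changes in this comparison. By the length of the longest annotated transcript, the median log2 fold change was -0.02 in the 760 shortest genes, -0.07 in the 757 of middle length and -0.20 in the 758 longest. Of the genes that fell, 7, 16 and 31 were in these classes, or 0.921%, 2.11% and 4.09% of their genes. Rescaling by the median of ratios moved all 3 medians up, to 0.04, -0.01 and -0.15, with their order unchanged and the sign for the shortest genes changed. The median longest transcript was 4512 bases in the 54 genes that fell and 3026 bases in all tested genes. For the genes that rose the check is void, since 14 of 21 had a length (66.7%), and of these 4, 4 and 6 were in the same classes. With a smooth correction for transcript length in each library, chosen after seeing the data, 54 genes passed, 24 higher and 30 lower, and 49 of the 75 calls were among them. Kdm5c (-0.37), Per1, Tsc22d3, Cebpd, Acaca, Mt1 and Angptl8 lost their calls there, while Bcl6 kept its own. In the longest genes the median was 0.07 for the Kdm5 vectors without the AhR vector in males. It was 0.10 for the Kdm5 vectors added to the AhR vector in females. For the difference between the 2 male effects it was -0.24. What sets the relation with length was not tested.

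The same Kdm5 vectors without the AhR vector gave another picture in males. Comparing the Kdm5 group with the control group, which share no library with the 2 groups above, 28 genes passed (1.22%), 24 higher (1.04%) and 4 lower (0.174%). Tacc2, Tns1 and Garem1 rose in both comparisons, Wrnip1 fell in both, and Spata2l rose there (0.56, adjusted p = 0.0304) and fell here. These are 5 of the 75 genes and 5 of those 28, and the first 4 names are given because they are the overlap. Kdm5c was lower by 0.38 in that comparison (adjusted p = 0.139), and the difference of the 2 effects was -0.13 (adjusted p = 0.938), with a 95% confidence interval from -0.45 to 0.20. Fkbp5 averaged 17.6 ± 4.74 FPKM (SD, n = 3) in the control group and 35.2 ± 3.93 in the Kdm5 group, beside 16.3 ± 5.9 in the AhR group and 33.7 ± 4.98 in the Kdm5 plus AhR group. Its log2 fold changes were 1.01 (adjusted p = 0.133) without and 1.07 with the AhR vector, differing by 0.07 ± 0.41.

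The difference between the Kdm5 effect with and without the AhR vector passed for 37 genes (1.61%), 5 higher (0.217%) and 32 lower (1.39%). For Bcl6 the effects were -3.29 and 0.76, a difference of -4.05 ± 0.41 (adjusted p = 4.43e-06). Spata2l (-1.73) had the same adjusted p, and both passed without any single library. Id2 went the other way, 0.91 with the AhR vector and -0.63 without, a difference of 1.54 (adjusted p = 0.0158). In the control group Id2 averaged 79.8 ± 7.68 FPKM and in the Kdm5 plus AhR group 84.5 ± 12.5, with 44.5 ± 4.28 in the AhR group and 52.2 ± 12.4 in the Kdm5 group. Camk2b (2.00), Pim3 (-1.70), Arrdc2 (-1.65), Per1 (-1.52) and Lgals4 (-1.51) differed too. The count was 5 without library 2 and 10 without library 3 of the Kdm5 plus AhR group, 7 without library 3 of the AhR group, 8 without library 1 and 19 without library 3 of the Kdm5 group, 24 without library 2 of that group, and 22 without library 2 or library 3 of the control group.

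**Figure D4:**
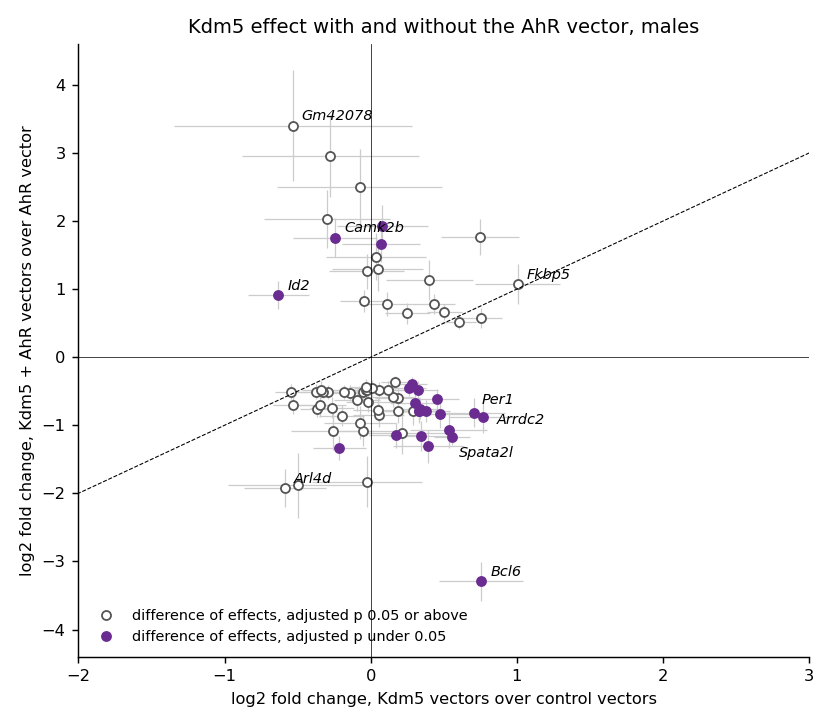
Log2 fold change of the Kdm5 vectors on top of the AhR vector (vertical) against that without it (horizontal) for the 75 genes that passed, with standard errors as bars and the line of equality dashed. Filled points are genes whose 2 effects differed at an adjusted p under 0.05, and Bcl6 and Spata2l lie below 0 on the vertical and above 0 on the horizontal axis.

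**Figure D5:**
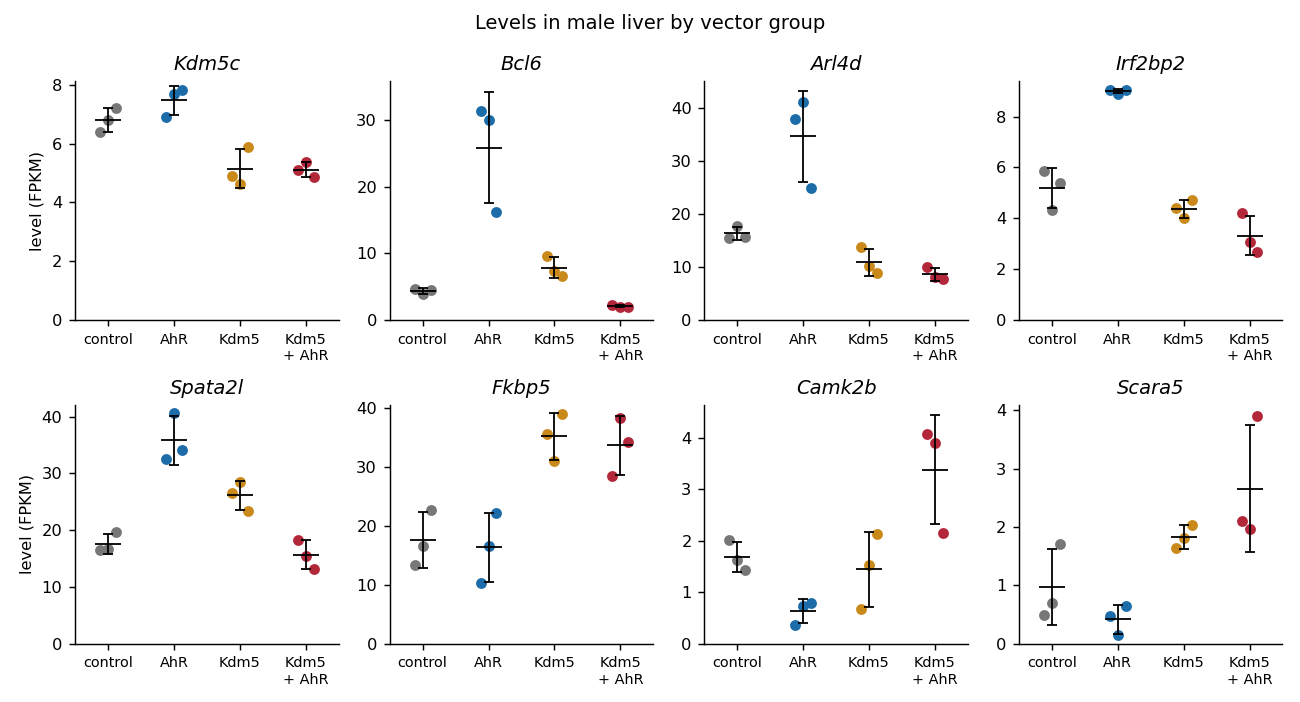
FPKM of 8 genes in the 4 male groups, with 1 point per library and the mean ± SD (n = 3) in black. Bcl6, Arl4d, Irf2bp2 and Spata2l are highest in the AhR group, while Fkbp5 is higher in both groups with Kdm5 vectors and Camk2b is highest in the Kdm5 plus AhR group.

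Several of the genes that fell were higher in the AhR group than in the control group, a comparison in which 25 genes passed (1.09%), 19 higher (0.826%) and 6 lower. Bcl6 and Spata2l passed there with the same adjusted p of 0.000111, Irf2bp2 passed (adjusted p = 0.049) and Arl4d did not (adjusted p = 0.0719). Arl4d averaged 16.4 ± 1.27 FPKM (SD, n = 3) in the control group, 34.7 ± 8.64 in the AhR group, 10.9 ± 2.54 in the Kdm5 group and 8.64 ± 1.19 in the Kdm5 plus AhR group. Spata2l averaged 17.6 ± 1.78, 35.8 ± 4.32, 26.1 ± 2.6 and 15.7 ± 2.54 in the same order, and Irf2bp2 5.19 ± 0.779, 8.99 ± 0.0781, 4.38 ± 0.355 and 3.32 ± 0.78. Between the Kdm5 plus AhR group and the control group, Spata2l differed by -0.17 (adjusted p = 0.571), Irf2bp2 by -0.59 (adjusted p = 0.0913) and Bcl6 by -0.92 (adjusted p = 0.0975), none of which passed. In that comparison 54 genes passed (2.35%), 31 of them lower (1.35%). Both comparisons share 3 libraries with the main one, so their values are not independent of it.

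In females the same addition of Kdm5 vectors to the AhR vector called 16 genes (0.696%), 12 higher (0.522%) and 4 lower (0.174%). Nab2, named for this overlap, rose in both sexes, and Spata2l rose in females (0.78, adjusted p = 0.00475), where it averaged 14.2 ± 1.42 FPKM (SD, n = 3) with the AhR vector and 24.7 ± 0.829 with both. The difference between the sexes passed for 40 genes (1.74%), 9 higher (0.391%) and 31 lower (1.35%) in males, and Spata2l (-1.95, adjusted p = 1.11e-06) and Bcl6 (-2.75, adjusted p = 0.00167) were the named genes that passed without any single library. In females Bcl6 measured 8.25, 13.48 and 6.43 FPKM with the AhR vector and 4.38, 6.23 and 7.87 FPKM with both, which overlap. Scara5 was at or below 0.14 FPKM in all 6 female libraries compared, too low for a fall or a small rise there to be seen. Mt1 averaged 453 ± 181 FPKM in females with the AhR vector and 296 ± 92.2 with both, a difference between the sexes of 1.73 (adjusted p = 0.0416). The count of 40 was 18 after rescaling by the median of ratios and was 29 without library 1 of the male Kdm5 plus AhR group and 56 without library 3 of the female AhR group. Without any other single library of these 4 groups it lay between 2 and 19.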

How the data were processed

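Liver RNA was measured in 24 libraries, of which 6 are compared here. The deposited table gives 1 FPKM value per gene and library, per the file headers, rounded to 2 decimals. Its deposited name speaks of raw counts, but the columns are headed FPKM and were used as such, so read depth is unknown and counting intervals cannot be formed. HISAT and Bowtie2 with the build GRCm38.p6 were used, per the submitters' processing notes, with versions, the counting step and strand not given in the sources used here, so reads of overlapping or antisense genes may be mixed. How the 2372 genes of the table were chosen is not stated, and an adjusted p holds within this table.

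Groups were taken from the labels, and libraries were numbered 1 to 3 within a group in sample order, so that numbers pair nothing. Values were tested as log2(FPKM + 0.5) with limma 3.58.1 in R 4.3.3, with 1 mean per group over all 24 libraries (16 residual degrees of freedom), an intensity trend and robust moderation. The filter, 1 FPKM or more in 3 or more libraries, kept 2299 genes and left out 73. Adjusted p-values are Benjamini-Hochberg values over the 2299 genes, and a ± after a log2 value is a standard error. The procedure was tested on simulated data. Coordinates and promoters are from RefSeq (GRCm38.p6), to which 2358 genes matched by gene ID.

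Genes named are Kdm5c, up to 15 genes in each direction with the largest change that passed, did not overlap and averaged 1 FPKM or more, up to 6 passing members of each list, and up to 8 in each direction for each difference. Exceptions are stated where they occur. The members and lists were chosen with earlier results of these data known. Alternatives were another scaling, pseudocounts of 0.1 and 1, no filter, a filter of at least 5 FPKM in 6 libraries, library weights, plain moderation, fits on fewer groups, leaving out each library and, added after seeing the data, a smooth correction for transcript length in each library.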

Additional observations from a re-analysis of the deposited data

Results flagged for a closer look

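Effects that differed between groups, by limma's test of the difference itself, stood out for 37 genes between males with and without the AhR vector. Relative to the Kdm5 effect without the AhR vector, the effect with it was lower for Bcl6 (-4.05), Cep85l (-1.93), Spata2l (-1.73), Pim3 (-1.70), Arrdc2 (-1.65), Tcim (-1.61), Per1 (-1.52) and Lgals4 (-1.51), all as log2 differences. It was higher for Camk2b (2.00), Gm39701 (1.85), Gm41844 (1.60), Id2 (1.54) and Tbx3 (0.97). Bcl6, Spata2l and Id2 passed all 12 fits without a library. Gm39701, Tcim and Tbx3 passed 3 of the 12, Gm41844 4 and Cep85l 5, and the others 8 to 10. Cep85l and Tbx3 did not pass in the main comparison, at -1.01 (adjusted p = 0.0781) and 0.35 (adjusted p = 0.319).

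The Kdm5 effect on top of the AhR vector differed between males and females for 40 genes by the same test. The male effect was lower for Gm40363 (-2.99), Bcl6 (-2.75), Spata2l (-1.95), Rap1gap (-1.44), Lgals4 (-1.42), Rasgef1b (-1.30), Spns2 (-1.14) and Sgk1 (-1.01), as log2 differences of males minus females. It was higher for Gm42078 (4.77), Gm39701 (2.28), Gm41844 (1.99), Scara5 (1.85), Camk2b (1.81), Mt1 (1.73), Nfil3 (1.07) and Ugt2b1 (1.05). Bcl6 and Spata2l passed all 12 fits without a library. Gm40363, Rap1gap and Nfil3 passed 1 of the 12, Spns2 and Mt1 2, Sgk1 and Ugt2b1 3, Lgals4 4 and Camk2b 5. Gm39701, Gm41844, Scara5 and Rasgef1b passed 8. Gm40363 stood at 0.8, 0.62 and 0.87 FPKM in the male AhR group and 0, 0 and 0.06 FPKM in the male Kdm5 plus AhR group. The difference for Gm42078 passed in 2 of 12 fits without a library and lost its call in 4 of 8 other settings, among them a pseudocount of 0.1, and its level in the male AhR group was 0, 0.32 and 0.94 FPKM. Scara5 was at or below 0.14 FPKM in the 6 female libraries, too low for a fall or a small rise to be seen. None of them reached 1.97 FPKM, the lowest value of the male Kdm5 plus AhR group. The Scara5 difference is thus close to the male change and says little of a proportional change in females. For Nfil3, a clock-linked repressor gene, the female effect passed (-0.95, adjusted p = 0.0238) and the male effect did not (0.12, adjusted p = 0.833).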

How the results depend on the processing

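The count of 75 genes became 179 with library weights and 24 in a fit on the 6 compared libraries only, where 18 of the 75 calls were kept. It ranged from 35 to 65 when a single library was left out. Kdm5c kept its sign and lost its call in the fit on the 6 libraries (-0.51) and with the transcript length correction (-0.37), and ranged from -0.56 to -0.47 without a library. The count of 37 for the difference with and without the AhR vector became 23 after rescaling by the median of ratios. It was 97 with library weights, 13 in the 12 male libraries and 26 with the length correction. Without a library it ranged from 5 to 44. The count of 40 between the sexes became 18 after rescaling, 26 with the stricter filter, 159 with library weights, 20 in the 12 libraries with the AhR vector and 12 with the length correction, and ranged from 2 to 56 without a library. Some of these fits held fewer libraries or genes, others did not, and what moved the counts was not tested.

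Of 36 named genes of the main comparison, 14 passed every fit without a library and 8 every setting. For named genes, 840 results kept their call, 317 lost it and 0 reversed. No paired analysis was possible because the labels give no replicate numbers that groups share. FPKM holds no depth, so counting error of low genes is unknown.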
